A study of Mus musculus with 6 samples.

Results

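RNA that came down with an antibody against Cnot3 from mouse heart lysate was compared with the RNA of the lysate itself, gene by gene and by functional group. The comparison used 4 of the series' 6 libraries, 2 of Cnot3 RIP and 2 of Input, and the genes were all those with at least 0.5 deposited CPM (reads scaled to the library's total) in 2 or more of the 6 libraries. This kept 13129 of 24421 gene symbols. At the edge of that filter, the second-highest deposited value was 0.508 CPM for Gm12942, which was kept, and 0.499 CPM for Pnmt, which was not.

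All 6 libraries came from whole hearts of C57BL6/J mice aged 4 weeks, with no transgene, deletion or treatment named in the labels. The groups were RIP (RNA immunoprecipitation) with the Cnot3 antibody, RIP with a control IgG, and Input, the heart lysate before precipitation. The series describes 2 experiments, and the labels do not tell whether replicate libraries of a group came from separate animals, so that each p-value reflects library-to-library spread that may be purely technical. The tissue label was checked with 16 cardiomyocyte markers, all of which were detected. Rn45s, the precursor of ribosomal RNA, held 51.1% to 53.1% of the reads in Cnot3 RIP, 59.4% to 60.2% in control IgG RIP and 78.3% to 79.2% in Input. Reads outside Rn45s numbered 8999040 and 12500739 for Cnot3 RIP, 3407528 and 6954079 for Input, and 7172223 and 7023051 for control IgG RIP. Levels are therefore given as scaled CPM, meaning CPM of the reads outside Rn45s after a TMM composition factor, and higher or lower always means relative to the other genes outside Rn45s. Differences are of log2(scaled CPM + 0.5), tested with limma across all 13129 genes and called at a Benjamini-Hochberg adjusted p under 0.05. On deposited CPM, where Rn45s is in the totals, the median difference of all genes is 0.93 and not 0.0087, so that many lower genes then lie above 0. A log2 difference of 1 is a 2-fold difference, and differences of low genes are understated by the added 0.5.

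Cnot3 is a non-catalytic subunit of CCR4-NOT, the large complex that removes the poly(A) tail of cytoplasmic mRNAs and so starts their decay and silencing. The complex is brought to its targets by proteins that bind the 3′ UTR, among them the tristetraprolin family on AU-rich elements, Pumilio proteins, and the Argonaute and TNRC6 proteins that carry microRNAs. AU-rich elements are common in the mRNAs of cytokines and immediate-early genes, which are made in bursts and live briefly. RIP recovers whole transcripts associated with the precipitated protein, directly or through partners, together with RNA that sticks to the beads and antibody, which the control IgG libraries sample.

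The sequences that recur among the mRNAs with the largest differences are AU-rich motifs of the 3′ UTR, shown here because these mRNAs head the comparison. A 9-base AU-rich motif, TTATTTATT, was found in the annotated 3′ UTR of Nfkbia, D5Ertd579e, Dusp1, Tnf and Lif, and its 7-base core, TATTTAT, in that of Edn1, Hic2, Nr6a1, F3 and Plagl2 without the longer form. Id1 and Ddit4, the remaining 2 of the 12 named genes with the largest positive differences, had neither motif. Tnf and Lif reached the filter on low values only with the Cnot3 RIP libraries counted. They carry no test in this report and are shown for their letters only. Of all coding genes tested, 7.31% held the 9-base motif and 28.1% its core. Each line gives a 30-base window in mm10 coordinates, read 5′ to 3′ on the gene's strand, with the motif in capitals.
Nfkbia chr12:55489607-55489636 (minus strand): ggaccacgttTTATTTATTgtgcttttgat
Dusp1 chr17:26506158-26506187 (minus strand): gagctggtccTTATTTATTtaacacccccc
D5Ertd579e chr5:36601115-36601144 (minus strand): catgttgctcTTATTTATTtacaggtatca
Tnf chr17:35199688-35199717 (minus strand): tttgcacttaTTATTTATTatttatttatt
Lif chr11:4272039-4272068 (plus strand): aaaggggcctTTATTTATTatttaaaactt
Edn1 chr13:42307805-42307834 (plus strand): ttttttatagaTATTTATattcaaacaatt
F3 chr3:121734952-121734981 (plus strand): atgggattttcTATTTATatagcttctatt
All 7 windows lie in the 3′ UTR of the protein-coding transcript with the longest coding sequence of each gene. Tnf carried 5 copies of the 9-base motif, counted with overlaps, Dusp1 2, Lif 2, Nfkbia 1 and D5Ertd579e 1. A match is a description of the letters and does not show that a protein binds there.

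A second recurring sequence was CTACCTC, the complement of the seed of the let-7 microRNAs, which stood in the 3′ UTR of 4 of the 12 named genes. It stood in 9.55% of all coding genes tested and in 22.6% of the quintile with the longest 3′ UTRs. Nr6a1, Hic2 and Plagl2, with 3′ UTRs of 4453, 4262 and 3717 bases, belong to that quintile. Pumilio and miR-1 motifs were not counted in the 12 named genes. Nr6a1 held 8 copies, Hic2 4, Edn1 1 and Plagl2 1. The microRNA sequences are from RefSeq's mouse annotation (GRCm38.p6), with the seed, bases 2 to 8, in capitals, and the matching letters in a window of the Hic2 3′ UTR are in capitals below them.
let-7a-5p: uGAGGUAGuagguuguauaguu
let-7g-5p: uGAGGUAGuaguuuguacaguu
miR-98-5p: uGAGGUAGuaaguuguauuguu
Hic2 chr16:17259373-17259402 (plus strand): tggtgactattCTACCTCcctgggcccact
These 3 microRNAs share 1 seed, and their levels were not analysed here. Nr6a1 encodes an orphan nuclear receptor and Hic2 a transcriptional repressor.

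Of the 13129 genes, 716 were higher in Cnot3 RIP than in Input (5.45%) and 445 were lower (3.39%) in the limma test. The higher genes had a median log2 difference of 1.501 and the lower genes one of −1.11, and 653 and 319 of them differed by at least 2-fold. The values of both Cnot3 RIP libraries lay outside those of both Input libraries for all 1161 called genes (8.84% of those tested), as they also did for 27.7% of all tested genes in the higher and 29.7% in the lower direction. The median over all genes was 0.0087. Of the 716 higher genes 24 reached the filter on low values only with the Cnot3 RIP libraries counted, as did 549 of all genes tested, so that genes of this kind are given as values with no test. Against the same Input libraries, control IgG RIP had 337 higher genes (2.57%) and 203 lower (1.55%). Against control IgG RIP, Cnot3 RIP had 187 higher genes (1.42%) and 39 lower (0.297%), 1.72% together. These 3 comparisons come from 1 fit and share libraries, so values for single genes are set side by side below and not counted as separate evidence.

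The counts rested on single libraries. Limma called 1298 genes higher and 628 lower without Cnot3 RIP replicate 1, but 124 and 20 without Cnot3 RIP replicate 2. Without Input replicate 1 the counts were 67 and 5, and without Input replicate 2 they were 3 and 0 (1270 and 849 at an unadjusted p under 0.05). The 3 genes called without Input replicate 2 were Nfkbia, Hic2 and Nr6a1. Lower calls numbered 209 without control IgG RIP replicate 1 and 230 without control IgG RIP replicate 2, whose spread enters the fit. Cnot3 RIP replicate 2 held the larger value of the pair for 649 of the 716 higher genes and the smaller value for 330 of the 445 lower genes. In these 6 fits no called gene changed sign, but they reuse the libraries the genes were called from.

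**Figure D1:**
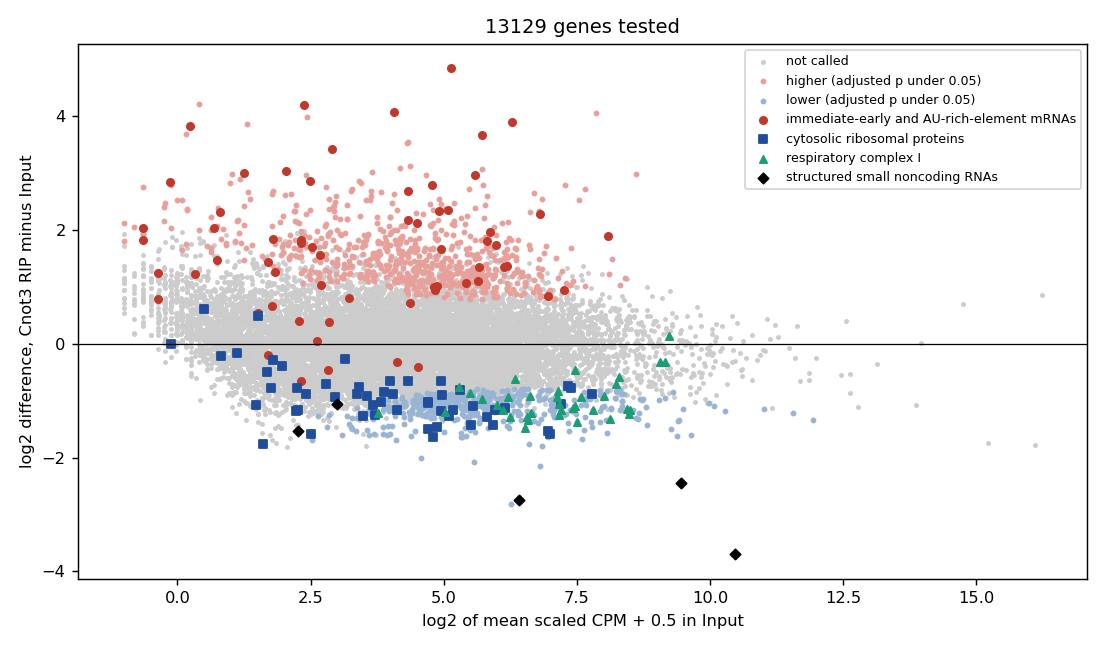
Log2 difference between Cnot3 RIP and Input (vertical axis) against log2 of mean scaled CPM plus 0.5 in Input (horizontal axis) for 13129 genes. Pale red and pale blue points passed the limma test as higher and lower; members of 4 gene groups are drawn over them, with immediate-early mRNAs reaching 4.83 for Nfkbia and the RNase P RNA Rpph1 at −3.70.

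The transcript of the precipitated protein itself did not pass. Cnot3 stood at 26.4 and 40.0 scaled CPM in Cnot3 RIP, 16.4 and 17.0 in Input and 20.2 and 17.6 in control IgG RIP (log2 difference 0.94, SE 0.26, limma adjusted p = 0.0558). Both Cnot3 RIP libraries lay above the other 4. The Cnot3 gene lies at chr7:3645268-3661109 on the plus strand and overlaps Leng1 and Mir3572, and whether the counting used strand is not given in the sources used here.

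The mRNA with the largest difference was Nfkbia, which encodes the inhibitor IκBα that holds NF-κB in the cytoplasm. It stood at 591 and 1503 scaled CPM in Cnot3 RIP, 23.0 and 46.3 in Input and 31.4 and 38.3 in control IgG RIP. Both Cnot3 RIP values were far above the other 4, and control IgG RIP lay within the Input range (28.5-fold, log2 difference 4.83, SE 0.44, limma adjusted p = 0.00273). Dusp1, a phosphatase that inactivates MAP kinases, had 762 and 1738 scaled CPM in Cnot3 RIP, 81.7 and 73.4 in Input and 51.7 and 101 in control IgG RIP. The Cnot3 RIP values were again the highest, while control IgG RIP straddled Input (log2 difference 3.89, SE 0.41, limma adjusted p = 0.00454). D5Ertd579e, a little-described gene, was the most read of the named higher genes, at 2351 and 6117 scaled CPM in Cnot3 RIP, 221 and 239 in Input and 231 and 267 in control IgG RIP (log2 difference 4.04, SE 0.39, limma adjusted p = 0.00322). Its Input and control IgG RIP values lay close together.

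Edn1 and F3 encode proteins that act outside the cell. Edn1, the precursor of the vasoconstrictor endothelin, had 54.9 and 152 scaled CPM in Cnot3 RIP against 3.55 and 5.82 in Input (log2 difference 4.18, SE 0.53, limma adjusted p = 0.00781). F3, tissue factor of the clotting cascade, had 115 and 437 scaled CPM in Cnot3 RIP against 14.5 and 24.7 in Input (log2 difference 3.53, SE 0.52, limma adjusted p = 0.00991). Neither gene's Cnot3 RIP values overlapped Input, which the choice of named genes required. The control IgG RIP values were 2.54 and 7.0043 for Edn1 and 17.5 and 16.1 for F3. The cytokines Tnf and Lif were rare in the lysate and reached the filter only with the Cnot3 RIP libraries counted, so no test is given for them. Tnf had 16.041 and 10.7 scaled CPM in Cnot3 RIP against 1.37 and 0 in Input, where the 0 stands for no read and 3 reads would be 0.426 scaled CPM, a limit that covers counting error only. Lif had 12.9 and 14.6 scaled CPM in Cnot3 RIP against 0.820 and 0.426 in Input. In both cytokines the Input values rest on a handful of reads, 5 and 0 for Tnf and 3 and 3 for Lif.

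Among regulators inside the cell, Id1, an inhibitor of basic helix-loop-helix factors and a target of BMP signalling, had 150.3 and 518 scaled CPM in Cnot3 RIP against 18.6 and 14.0 in Input (log2 difference 4.07, SE 0.48, limma adjusted p = 0.00723). Ddit4, a stress-induced inhibitor of mTORC1, had 237 and 1587 scaled CPM in Cnot3 RIP against 31.7 and 72.1 in Input (log2 difference 3.67, SE 0.73, limma adjusted p = 0.0226). Its 2 Cnot3 RIP libraries were the furthest apart in proportion of the 12 named higher genes. That both were above Input was a condition for naming a gene here. Hic2, with 4 let-7 seed matches, had 74.2 and 97.4 scaled CPM in Cnot3 RIP against 5.47 and 4.40 in Input (log2 difference 3.98, SE 0.27, limma adjusted p = 0.000984), and Nr6a1, with 8, had 23.9 and 45.1 scaled CPM in Cnot3 RIP against 1.09 and 2.84 in Input (log2 difference 3.86, SE 0.43, limma adjusted p = 0.00561). Their control IgG RIP values lay between the other groups, at 8.65 and 11.0 for Hic2 and 5.60 and 7.80 for Nr6a1 (log2 differences from Input 0.92 and 1.62, not called). Plagl2, a zinc finger transcription factor, had 177 and 293 scaled CPM in Cnot3 RIP against 21.0 and 17.9 in Input (log2 difference 3.52, SE 0.30, limma adjusted p = 0.00273). Hic2 was the gene whose Cnot3 RIP libraries differed least in proportion among those named in this paragraph.

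Without Tnf and Lif, the 10 named higher genes passed against control IgG RIP, with limma adjusted p from 0.00729 to 0.0387 and log2 differences from 2.23 for Nr6a1 to 4.74 for Nfkbia. That comparison reuses the Cnot3 RIP libraries on which the genes were picked, so it is no separate evidence. The log2 differences of these 10 genes between control IgG RIP and Input ran from −0.47 for Id1 to 1.62 for Nr6a1, and none was called. Ddit4 no longer passed without Cnot3 RIP replicate 2, nor did Ddit4 and F3 without Input replicate 1. Without Input replicate 2 only Nfkbia, Hic2 and Nr6a1 passed, and the largest limma adjusted p among the 10 was 0.115, for Ddit4. Dusp1 overlaps Ergic1, and Nr6a1 overlaps the microRNA genes Mir181a-2 and Mir181b-2, on opposite strands in each case.

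**Figure D2:**
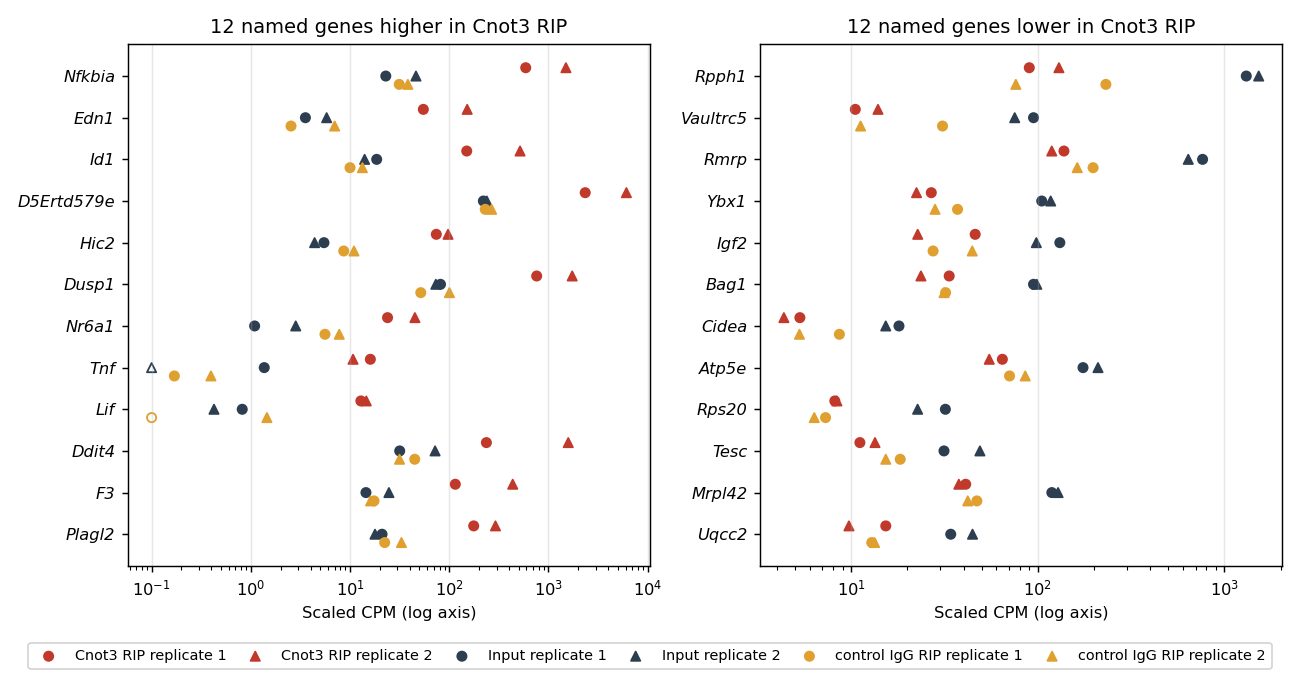
Scaled CPM (log axis) of the 12 named genes higher and the 12 lower in Cnot3 RIP than in Input, 1 point per library. Open symbols mark libraries with no read (Tnf in Input replicate 2 and Lif in control IgG RIP replicate 1), drawn at 0.1; Tnf and Lif carry no test; in the higher genes Cnot3 RIP stands apart from the other libraries, and in the lower genes both kinds of RIP lie below Input.

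Immediate-early mRNAs and further transcripts known for AU-rich elements held the largest share of higher genes among the lists of coding genes. This list, like all others here, was drawn up with earlier results of these data known, so that its rank is a description and no test. Limma called 31 of the 62 tested members higher against Input (50%, against 5.45% of all genes) and the other members did not pass. The median log2 difference of the list was 1.68, against 0.0087 over all genes, and 57 members had a difference above 0. Of the 62 members 10 reached the filter only with the Cnot3 RIP libraries counted, and 3 of them, Tnf, Socs1 and Ccl2, are among the 31. The other 52 had 28 higher members and a median of 1.61. Between control IgG RIP and Input the median was −0.12. As a share of reads outside Rn45s the list took 0.599% and 1.26% in Cnot3 RIP, 0.194% and 0.178% in Input and 0.127% and 0.192% in control IgG RIP. Its share in both Cnot3 RIP libraries was above that in each of the other 4, and in replicate 2 it was larger than in replicate 1.

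Members of this list covered several functions. Transcription factors that passed included Fos, with 84.3 and 59.3 scaled CPM in Cnot3 RIP against 10.4 and 3.55 in Input (log2 difference 3.42), and Myc, with 19.004 and 57.2 scaled CPM in Cnot3 RIP against 3.28 and 3.97 in Input (3.03). Egr1 and Nr4a1, which are induced by the same kinds of stimuli, had log2 differences of 0.98 and 0.71 and did not pass (limma adjusted p = 0.420 and 0.559). Socs3, which damps cytokine receptor signalling, was higher at 2.85. Ptgs2, the inducible enzyme of prostaglandin synthesis, was higher at 2.99. Vegfa, the endothelial growth factor, was the most read of these in Input, at 754 and 1273 scaled CPM in Cnot3 RIP against 329 and 215 in Input (1.88). The lowest members were Atf3 at −0.66 and Gadd45a at −0.47, neither of which passed (limma adjusted p = 0.363 and 0.397). Fos, Myc, Egr1, Nr4a1, Socs3, Ccl2, Socs1, Ptgs2, Vegfa, Atf3 and Gadd45a were chosen for mention after their values were seen. The number of higher members was 38 and 10 without Cnot3 RIP replicate 1 and 2, and 10 and 1 without Input replicate 1 and 2, where Nfkbia was the 1 called.

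Higher calls were also frequent among mRNAs of the decay machinery itself. Of 45 factors of mRNA decay and of poly(A) tails, 19 were higher (42.2%, against 5.45% of all genes), with a median log2 difference of 0.64. Control IgG RIP minus Input had a median of 0.22 and 2 higher members, where 2.57% of all genes were higher. Tnrc6a, the scaffold that links Argonaute to CCR4-NOT, had 571 and 727 scaled CPM in Cnot3 RIP, 107 and 99.5 in Input and 192 and 169 in control IgG RIP (log2 difference 2.63, SE 0.23, limma adjusted p = 0.00273). Of the proteins that bind 3′ UTRs and set poly(A) length, Cpeb4 had 877 and 1999 scaled CPM in Cnot3 RIP against 199 and 204 in Input (log2 difference 2.71). Its relative Cpeb2 had 352 and 668 scaled CPM in Cnot3 RIP against 104 and 90.8 in Input (log2 difference 2.31, both called). The Cnot3 RIP values lay above all others for each of these genes. Zfp36, which encodes tristetraprolin, and its relatives Zfp36l2 and Zfp36l1 had log2 differences of 3.07, 2.00 and 1.90, all called. Btg2, Tob1 and Tob2, which bind the deadenylase subunits, were higher by 2.71, 1.82 and 2.78. The exonucleases Xrn1, Xrn2 and Parn and the helicases Ddx6 and Upf1 did not pass. Xrn1, which degrades decapped mRNA, had 0.50 (limma adjusted p = 0.211), and Ddx6, a helicase that binds CCR4-NOT, 0.35 (0.416). Of the decapping factors Dcp1a and Dcp2 passed, at 2.33 and 1.55. Zfp36, Zfp36l1, Btg2, Tob1, Tob2, Xrn1, Xrn2, Parn, Ddx6, Upf1, Dcp1a and Dcp2 were picked after their values were seen. The number of higher members was 22 and 8 without Cnot3 RIP replicate 1 and 2, and 2 and 0 without Input replicate 1 and 2.

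None of the 12 CCR4-NOT subunits tested was called by limma (the counts at an unadjusted p under 0.05 were 3 higher and 0 lower, edgeR's quasi-likelihood test called 0 and 0, and DESeq2 2 and 0). Their median was 0.29, and the list took 0.0854% and 0.0995% of reads outside Rn45s in Cnot3 RIP against 0.0837% and 0.0698% in Input. Cnot8, a deadenylase, had 34.1 and 84.8 scaled CPM in Cnot3 RIP against 24.0 and 30.6 in Input (log2 difference 0.97, SE 0.38, limma adjusted p = 0.137), and Cnot6, a deadenylase of the other class, 91.2 and 127 scaled CPM in Cnot3 RIP against 77.9 and 52.9 in Input (log2 difference 0.74, SE 0.30, limma adjusted p = 0.144). Rqcd1, the subunit also called Cnot9 that TNRC6 and tristetraprolin bind, had a log2 difference of 0.47 (SE 0.32, limma adjusted p = 0.376). When Cnot3 RIP replicate 1 was left out, 3 subunits were called higher.

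Feedback inhibitors of growth factor, Wnt, TGF-β and BMP signalling also held many higher calls. Of 34 members 13 were higher (38.2%, against 5.45% of all genes) and the others did not pass. The median was 0.96, and −0.028 for control IgG RIP minus Input. Axin2, a negative regulator of Wnt signalling, had 22.5 and 68.9 scaled CPM in Cnot3 RIP, 6.83 and 7.38 in Input and 5.26 and 6.21 in control IgG RIP (log2 difference 2.39, SE 0.44, limma adjusted p = 0.0174). Lrig3, a membrane protein of receptor tyrosine kinase signalling, had 6.95 and 11.9 scaled CPM in Cnot3 RIP against 1.64 and 1.70 in Input (log2 difference 2.15, SE 0.36, limma adjusted p = 0.0135). Skil, a repressor of SMAD transcription, had 152 and 242 scaled CPM in Cnot3 RIP against 60.1 and 47.4 in Input, and Socs7, a suppressor of cytokine signalling, 102 and 179 scaled CPM in Cnot3 RIP against 40.7 and 44.0 in Input (log2 differences 1.84 and 1.66, both called). For these 4 genes both Cnot3 RIP libraries exceeded both Input libraries, as for every gene called higher. Higher members numbered 18 and 0 without Cnot3 RIP replicate 1 and 2, and 0 and 0 without Input replicate 1 and 2.

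Chromatin regulators were a further list with frequent higher calls. Of 62 chromatin modifiers and remodellers 20 were higher (32.3%, against 5.45% of all genes), with a median of 0.58. Here the control IgG RIP median against Input was 0.42. Between Cnot3 RIP and control IgG RIP 4 members were higher, where 1.42% of all genes were higher. Tet2, which oxidises methylated cytosine, had 232 and 375 scaled CPM in Cnot3 RIP, 92.4 and 74.9 in Input and 109 and 109 in control IgG RIP (log2 difference 1.82, SE 0.27, limma adjusted p = 0.00980). Tet3, of the same family, had 326 and 383 scaled CPM in Cnot3 RIP, 116 and 118 in Input and 126 and 172 in control IgG RIP (log2 difference 1.59, SE 0.23, limma adjusted p = 0.00991). Both kept Cnot3 RIP above the other 4 libraries. Kmt2e, a member of the MLL family, had 309 and 509 scaled CPM in Cnot3 RIP against 121 and 121 in Input, and Baz2b, a bromodomain protein, 176 and 189 scaled CPM in Cnot3 RIP against 68.6 and 63.4 in Input (log2 differences 1.71 and 1.46, both called). The coding sequences of this list are long, with a median of 5220 bases against 1446 over all coding genes tested. With the trend on transcript length removed from each library, 5 members were called and the median was 0.21. The number called was 24 and 4 without Cnot3 RIP replicate 1 and 2, and 0 and 0 without Input replicate 1 and 2.

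Zinc finger genes named Zfp, a symbol-based list of mostly DNA-binding repressors, held 39 higher and 2 lower genes of 321 (12.2% and 0.623%, against 5.45% and 3.39% of all genes). The median was 0.38, and 0.13 for control IgG RIP. The list's largest difference, 3.07, was that of Zfp36, an mRNA decay factor, so this list overlaps that of decay factors. Zfp217 had 95.7 and 133 scaled CPM in Cnot3 RIP against 25.4 and 27.7 in Input (log2 difference 2.07, SE 0.24), Zfp568 193 and 321 scaled CPM in Cnot3 RIP against 59.0 and 48.2 in Input (2.21, SE 0.28), and Zfp560 and Zfp280c had log2 differences of 2.44 and 2.46, all called. Many such genes have close paralogues that can share reads. The number of higher Zfp genes was 65 and 9 without Cnot3 RIP replicate 1 and 2, and 6 and 0 without Input replicate 1 and 2.

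Lists of cardiac regulators were mixed. Of 30 cardiac transcription factors 5 were higher (16.7%, against 5.45% of all genes), among them Myocd, the coactivator myocardin, at 448 and 633 scaled CPM in Cnot3 RIP against 172 and 162 in Input (log2 difference 1.67, SE 0.25, limma adjusted p = 0.0111). Nfatc2, a calcineurin target, Tbx3, a conduction system factor, and Irx3, which patterns conduction, had log2 differences of 1.21, 1.11 and 1.47. The list's median was 0.35. Adrenergic and G protein signalling held 4 higher and 3 lower genes of 39 (10.3% and 7.69%, against 5.45% and 3.39% of all genes). Adrb1, the β1-adrenergic receptor of heart muscle, had 98.9 and 236 scaled CPM in Cnot3 RIP, 19.1 and 16.2 in Input and 16.1 and 20.2 in control IgG RIP (log2 difference 3.08, SE 0.37, limma adjusted p = 0.00723), with Cnot3 RIP above the other 4 libraries. Creb1, the cAMP-responsive transcription factor, was higher at 1.71. The G protein subunits Gnas and Gnai2 were lower, at −1.35 and −1.0004, with Gnas at 261 and 264 scaled CPM in Cnot3 RIP, 617 and 731 in Input and 355 and 275 in control IgG RIP. Receptor and G protein lay on opposite sides of Input, though Gnai2 was at 0.13 on deposited CPM. Of 45 calcium handling and ion channel genes 1 was higher and 1 lower (2.22% and 2.22%, both below the shares of all genes): Kcnj2, the inward rectifier channel that sets the resting potential, had 501 and 857 scaled CPM in Cnot3 RIP against 135 and 94.2 in Input (log2 difference 2.53, SE 0.34, limma adjusted p = 0.00942), and S100a1, a calcium sensor, 167 and 93.9 scaled CPM in Cnot3 RIP against 234 and 333 in Input (log2 difference −1.15, SE 0.30, limma adjusted p = 0.0482). S100a1 had −1.11 in control IgG RIP against Input. Without Cnot3 RIP replicate 2 these 3 lists had 1, 1 and 1 higher genes and 0, 0 and 0 lower genes, and without Input replicate 1 they had 0, 1 and 1 higher and 0 lower. Without Input replicate 2 none was called.

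Apoptosis regulators had calls in both directions. Of 37 members 6 were higher and 3 lower (16.2% and 8.11%, against 5.45% and 3.39% of all genes), with a median of 0.13. Bbc3, a BH3-only protein that triggers mitochondrial apoptosis and 1 of the 6, had 10.6 and 16.021 scaled CPM in Cnot3 RIP against 1.09 and 1.84 in Input. It reached the filter only with the Cnot3 RIP libraries counted, and no test is given for it. Bcl2l11, of the same class, had 106 and 191 scaled CPM in Cnot3 RIP against 32.5 and 20.1 in Input (2.45). Cflar, an inhibitor of caspase-8 activation, had 157 and 201 scaled CPM in Cnot3 RIP against 60.9 and 60.3 in Input (1.54). Cycs, cytochrome c, was lower, at 13.7 and 12.4 scaled CPM in Cnot3 RIP, 43.2 and 36.5 in Input and 16.1 and 16.1 in control IgG RIP (log2 difference −1.57, SE 0.23, limma adjusted p = 0.00980), in a gene with processed pseudogenes that can share its reads. Among fetal and hypertrophy genes 4 of 17 were higher and 3 lower (23.5% and 17.6%). Igf2bp2, an RNA-binding protein, had 21.3 and 35.4 scaled CPM in Cnot3 RIP against 8.20 and 5.39 in Input (1.96). Its relative Igf2bp3 had 6.95 and 4.78 scaled CPM in Cnot3 RIP, 1.37 and 1.14 in Input and 12.7 and 8.85 in control IgG RIP, where control IgG RIP was the highest group. Lin28b, which blocks let-7 maturation, had 3.88 and 3.52 scaled CPM in Cnot3 RIP against 0 and 0.284 in Input, where 3 reads in Input replicate 1 would be 0.820 scaled CPM. Lin28b, 1 of the 4, also reached the filter only with the Cnot3 RIP libraries counted and is given with no test. Nppa, atrial natriuretic peptide, was lower at 29.7 and 22.6 scaled CPM in Cnot3 RIP against 85.3 and 63.6 in Input (log2 difference −1.49, SE 0.25, limma adjusted p = 0.0135). In the absence of Cnot3 RIP replicate 2 the counts were 2 higher and 1 lower for apoptosis and 0 and 0 for the fetal list, and without Input replicate 1 they were 1 and 0 in each. Without Input replicate 2 none was called.

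In the remaining signalling and transport lists few genes passed. Of 225 solute carriers 12 were higher and 2 lower (5.33% and 0.889%), close to the share of all genes for higher calls. Slc19a2, a thiamine transporter, had 45.7 and 126 scaled CPM in Cnot3 RIP against 9.84 and 10.9 in Input (2.82), and Slc25a25, a mitochondrial ATP carrier, 45.4 and 99.6 scaled CPM in Cnot3 RIP against 15.0 and 8.51 in Input (2.52). Slc25a37, the mitochondrial iron importer of developing red cells, and Slc20a1, a phosphate transporter, had 1.32 and 1.44. The higher solute carriers numbered 29 and 3 without Cnot3 RIP replicate 1 and 2, and 1 and 0 without Input replicate 1 and 2. Ubiquitin ligases, FOXO and atrophy genes had 1 higher gene of 37 (2.70%, below the 5.45% of all genes), Fbxo30, a muscle ubiquitin ligase, at 91.0 and 137 scaled CPM in Cnot3 RIP against 57.7 and 54.2 in Input (log2 difference 0.99, SE 0.24, limma adjusted p = 0.0396). Fbxo32, atrogin-1, had 385 and 857 scaled CPM in Cnot3 RIP against 205 and 296 in Input and did not pass (limma adjusted p = 0.0667). In the cell cycle list 1 of 39 was higher (2.56%, also below), E2f3, a transcription factor of S phase entry, at 32.4 and 64.6 scaled CPM in Cnot3 RIP against 13.9 and 17.3 in Input (log2 difference 1.53, SE 0.32, limma adjusted p = 0.0262). In the circadian clock list Per1, a light- and stress-induced repressor, had 102 and 554 scaled CPM in Cnot3 RIP against 58.8 and 136 in Input, so that its groups overlapped (limma adjusted p = 0.229). Without Cnot3 RIP replicate 2 the calls of Fbxo30 and E2f3 were lost (limma adjusted p = 0.170 and 0.115), and without Input replicate 1 or 2 they were lost too.

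Clustered protocadherins, neuronal adhesion genes whose variants share constant exons, had higher calls against Input in both kinds of RIP. Of 33 tested, 9 passed as higher in Cnot3 RIP (27.3%, against 5.45% of all genes). In control IgG RIP 20 did, where 2.57% of all genes were higher. The medians were 1.06 and 2.97. Pcdhga8 had 23.0 and 22.0 scaled CPM in Cnot3 RIP, 4.10 and 4.11 in Input and 158 and 66.9 in control IgG RIP. Control IgG RIP was highest, Cnot3 RIP intermediate and Input lowest, with no overlap between the groups (log2 difference 2.32, SE 0.36, limma adjusted p = 0.0113). Pcdhga6, Pcdhgb5 and Pcdhga10 had the same order, with log2 differences from Input of 1.79, 1.98 and 1.66. Because of the shared exons a read can be assigned to more than 1 member, which leaves each member's own level uncertain. Between Cnot3 RIP and control IgG RIP, 14 members were lower, where 0.297% of all genes were lower. The 9 higher calls against Input were 3 and 1 without Cnot3 RIP replicate 1 and 2, and 0 and 0 without Input replicate 1 and 2.

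Nuclear long noncoding RNAs had no calls in Cnot3 RIP. None of 18 was called by limma against Input (the counts at an unadjusted p under 0.05 were 3 higher and 0 lower, edgeR's quasi-likelihood test called 0 and 0, and DESeq2 2 and 0). In control IgG RIP 3 of the 18 were higher, against 2.57% of all genes. Airn, an antisense RNA that silences imprinted genes, had 32.5 and 17.9 scaled CPM in Cnot3 RIP, 11.8 and 4.82 in Input and 127 and 66.7 in control IgG RIP (limma adjusted p against Input = 0.0573). Kcnq1ot1, of the same kind, had 548 and 227 scaled CPM in Cnot3 RIP, 235 and 83.1 in Input and 1679 and 1317 in control IgG RIP (limma adjusted p against Input = 0.128). Control IgG RIP was well above the other groups for both. Peg13, an imprinted noncoding RNA, had 92.3 and 138 scaled CPM in Cnot3 RIP against 63.9 and 73.6 in Input and Snhg3, a host of small nucleolar RNAs, 2.15 and 1.17 scaled CPM in Cnot3 RIP against 3.55 and 3.26 in Input (limma adjusted p = 0.107 and 0.195). Malat1, the abundant RNA of nuclear speckles, had 12809 and 3825 scaled CPM in Cnot3 RIP, 17706 and 12274 in Input and 15958 and 24513 in control IgG RIP (log2 difference −1.07, SE 0.61, limma adjusted p = 0.290). The gap between its 2 Cnot3 RIP libraries was wider than that between its 2 Input libraries, and the groups overlapped. Of 24 small nucleolar and Cajal body RNA genes (median −0.62) 2 were lower (8.33%, against 3.39% of all genes). These were Snord22 at 9.71 and 11.1 scaled CPM in Cnot3 RIP against 58.8 and 35.3 in Input (log2 difference −2.08, SE 0.39, limma adjusted p = 0.0187) and Scarna10 at 25.5 and 31.8 scaled CPM in Cnot3 RIP against 88.3 and 61.7 in Input (log2 difference −1.36, SE 0.28, limma adjusted p = 0.0249). The list's median for control IgG RIP was 0.26. Both calls were lost without Cnot3 RIP replicate 2, without Input replicate 1 and without Input replicate 2, and the median was then −0.41, −0.23 and −1.20.

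The largest losses were of small structured noncoding RNAs. Of 5 tested, 3 were lower (60%, against 3.39% of all genes) and the median was −2.44. Control IgG RIP had a median of −1.96 and 3 lower, where 1.55% of all genes were lower. Rpph1, the catalytic RNA of RNase P, had 90.0 and 129.8 scaled CPM in Cnot3 RIP, 1308 and 1525 in Input and 231 and 76.3 in control IgG RIP (0.0768 of the Input level, log2 difference −3.70, SE 0.44, limma adjusted p = 0.00723). Rmrp, the RNA of RNase MRP, had 138 and 119 scaled CPM in Cnot3 RIP, 763 and 639.7 in Input and 198 and 163 in control IgG RIP (log2 difference −2.44, SE 0.23, limma adjusted p = 0.00273). Vaultrc5, a vault RNA, had 10.5 and 13.9 scaled CPM in Cnot3 RIP, 94.8 and 75.2 in Input and 30.9 and 11.2 in control IgG RIP (log2 difference −2.75, SE 0.41, limma adjusted p = 0.0105). In all 3, every RIP library, with either antibody, lay below both Input libraries, and none was called between the antibodies (limma adjusted p = 0.812, 0.327 and 0.525), which does not show that they are equal. Rnu11, a minor spliceosomal RNA, had 3.27 and 3.27 scaled CPM in Cnot3 RIP against 8.75 and 6.24 in Input (log2 difference −1.07, SE 0.37, limma adjusted p = 0.0984). The list's share of reads outside Rn45s was 0.0264% and 0.0255% in Cnot3 RIP, 0.234% and 0.228% in Input and 0.0386% and 0.0274% in control IgG RIP. Rpph1 lies at chr14:50807449-50807767 on the minus strand within a region that also holds Ccnb1ip1 on the same strand, and Rmrp at chr4:43492783-43493063 overlaps Ccdc107 on the other strand. The number of lower members was 3 and 3 without Cnot3 RIP replicate 1 and 2, and 2 and 0 without Input replicate 1 and 2. Replication-dependent histone mRNAs, which end without a poly(A) tail, had a median of −1.12 over 18 members. Of these 1 was lower (5.56%, against 3.39% of all genes), Hist3h2a, at 2.76 and 2.26 scaled CPM in Cnot3 RIP against 6.56 and 6.81 in Input (log2 difference −1.26, SE 0.33, limma adjusted p = 0.0458). Hist2h4, of the same class, had 3.07 and 1.68 scaled CPM in Cnot3 RIP against 7.65 and 5.82 in Input (limma adjusted p = 0.0584). The histone list's median for control IgG RIP minus Input was −0.90, with no call. The Hist3h2a call was lost without Cnot3 RIP replicate 2, Input replicate 1 or Input replicate 2.

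Lower calls were frequent among mRNAs of respiratory chain subunits. Of 36 subunits of respiratory complex I 17 were lower (47.2%, against 3.39% of all genes) and the rest did not pass, with a median of −1.09. Of 43 subunits of complexes II to V 17 were lower (39.5%), with a median of −0.98. Control IgG RIP minus Input gave medians of −0.90 and −0.83 and 2 and 6 lower calls, where 1.55% of all genes were lower. Ndufa2, an accessory subunit of complex I, had 39.7 and 27.0 scaled CPM in Cnot3 RIP, 88.3 and 95.9 in Input and 37.8 and 55.6 in control IgG RIP (log2 difference −1.48, SE 0.27, limma adjusted p = 0.0172). Ndufb5, a further accessory subunit, had 106 and 92.4 scaled CPM in Cnot3 RIP against 207 and 242 in Input (log2 difference −1.17), and Ndufb10 had 143 and 84.6 scaled CPM in Cnot3 RIP against 256 and 302 in Input (−1.33). Atp5e, the ε subunit of ATP synthase, had 64.6 and 54.9 scaled CPM in Cnot3 RIP, 175 and 210.1 in Input and 70.5 and 85.6 in control IgG RIP (log2 difference −1.68, SE 0.22, limma adjusted p = 0.00917). Uqcr10, of complex III, and Atp5d, the δ subunit of ATP synthase, had −1.24 and −1.16. For each of these 6 genes all RIP libraries were below both Input libraries. Together complex I took 0.493% and 0.343% in Cnot3 RIP, 0.660% and 0.748% in Input and 0.383% and 0.488% in control IgG RIP of reads outside Rn45s. On deposited CPM the list medians were 0.045 for complex I and 0.14 for complexes II to V. The number of lower complex I genes was 28 and 0 without Cnot3 RIP replicate 1 and 2, and 0 and 0 without Input replicate 1 and 2, and for complexes II to V it was 30 and 2 without Cnot3 RIP replicate 1 and 2, and 0 and 0 without Input replicate 1 and 2.

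Lower calls were frequent in the translation apparatus as well. Of 54 cytosolic ribosomal proteins tested, out of 86 in the table, 20 were lower (37.0%, against 3.39% of all genes), with a median of −0.98. Control IgG RIP had 23 lower and a median of −1.25, where 1.55% of all genes were lower. Rps20, a small-subunit protein, had 8.17 and 8.39 scaled CPM in Cnot3 RIP, 32.0 and 22.7 in Input and 7.29 and 6.34 in control IgG RIP (log2 difference −1.64, SE 0.27, limma adjusted p = 0.0135). Rps2 and Rpl23 had log2 differences of −1.43 and −1.51. Both kinds of RIP lay below Input without overlap for these 3. Ribosomal protein genes have many processed pseudogenes, so their levels, and those of Ybx1 and Eef1a1 below, are uncertain. Of 75 mitochondrial ribosomal proteins 12 were lower (16%, median −0.73), including Mrpl42 at 41.1 and 37.7 scaled CPM in Cnot3 RIP against 119 and 128 in Input (log2 difference −1.64, SE 0.21, limma adjusted p = 0.00781) and Mrpl15 at 19.3 and 17.9 scaled CPM in Cnot3 RIP against 45.4 and 43.8 in Input (log2 difference −1.24, SE 0.22, limma adjusted p = 0.0152). Of 61 translation factors 9 were lower and 1 higher (14.8% and 1.64%). Eef1a1, the main elongation factor, had 62.2 and 47.9 scaled CPM in Cnot3 RIP against 131 and 136 in Input, and Eif5a, which helps the ribosome past proline runs, 37.9 and 29.9 scaled CPM in Cnot3 RIP against 89.4 and 84.0 in Input (log2 differences −1.28 and −1.35). The higher one was Eif2ak3, the stress kinase PERK, which inhibits initiation, at 47.9 and 111 scaled CPM in Cnot3 RIP, 15.9 and 14.9 in Input and 17.8 and 18.9 in control IgG RIP (log2 difference 2.21, SE 0.35, limma adjusted p = 0.0127). For mitochondrial ribosomal proteins and translation factors the control IgG RIP medians against Input were −0.61 and −0.46, with 9 and 7 lower calls. Between Cnot3 RIP and control IgG RIP, none of the lists of this paragraph had a lower call. On deposited CPM the medians were 0.075 for cytosolic and 0.36 for mitochondrial ribosomal proteins. The call of Eif2ak3 was lost without Input replicate 1 or 2. Lower cytosolic ribosomal proteins numbered 18 and 3 without Cnot3 RIP replicate 1 and 2, and 0 and 0 without Input replicate 1 and 2. Lower mitochondrial ribosomal proteins numbered 22 and 1 without Cnot3 RIP replicate 1 and 2, and 0 and 0 without Input replicate 1 and 2, and lower translation factors 6 and 0 without Cnot3 RIP replicate 1 and 2, and 0 and 0 without Input replicate 1 and 2.

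Other genes named for large losses were scattered in function. Ybx1, an abundant mRNA-binding protein, had 26.9 and 22.4 scaled CPM in Cnot3 RIP, 105 and 117 in Input and 37.1 and 28.1 in control IgG RIP (log2 difference −2.15, SE 0.23, limma adjusted p = 0.00491). Igf2, a fetal growth factor, had 46.2 and 22.7 scaled CPM in Cnot3 RIP, 131 and 98.2 in Input and 27.5 and 44.5 in control IgG RIP (log2 difference −1.79, SE 0.36, limma adjusted p = 0.0233), in a locus that also holds Mir483 and the antisense Igf2os. Bag1, an Hsp70 co-chaperone, had 33.5 and 23.7 scaled CPM in Cnot3 RIP, 94.8 and 98.7 in Input and 32.1 and 31.5 in control IgG RIP (log2 difference −1.76, SE 0.23, limma adjusted p = 0.00891). Each lay below Input in all 4 RIP libraries. Cidea, a lipid droplet protein, Tesc, a calcium-binding protein, and Uqcc2, an assembly factor of complex III, had log2 differences of −1.69, −1.64 and −1.64. All 12 named lower genes had a negative difference between control IgG RIP and Input, from −3.40 for Rpph1 to −1.20 for Tesc, and 11 were called there, Cidea being the exception (limma adjusted p = 0.0595). That comparison reuses the Input libraries on which the genes were picked, so it is no separate evidence. None of the 12 was called between Cnot3 RIP and control IgG RIP, where differences ran from −0.61 for Vaultrc5 to 0.27 for Rps20. Without Cnot3 RIP replicate 2, Igf2, Cidea, Rps20 and Uqcc2 did not pass. Without Input replicate 1, Rpph1, Rmrp, Ybx1 and Tesc alone of the 12 passed, and without Input replicate 2 none did (largest limma adjusted p 0.152).

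Lists of protein quality control and fuel metabolism held some lower calls. Of 46 proteasome subunits 6 were lower (13.0%, against 3.39% of all genes, median −0.60), among them Psmc1 at 24.2 and 27.6 scaled CPM in Cnot3 RIP against 51.9 and 48.2 in Input (log2 difference −0.94, SE 0.22, limma adjusted p = 0.0325), an ATPase of the regulatory particle, and Psma2 at 16.7 and 14.1 scaled CPM in Cnot3 RIP against 30.9 and 31.2 in Input (log2 difference −0.9957, SE 0.23, limma adjusted p = 0.0349), of the core. Of 70 chaperones and co-chaperones 6 were lower (8.57%, median −0.24), with the small heat shock proteins Hspb6 and Hspb8 at −1.35 and −0.99. Of 43 glycolysis and citric acid cycle genes 5 were lower (11.6%, median −0.45), including Tpi1, triose phosphate isomerase, at 113 and 94.4 scaled CPM in Cnot3 RIP against 242 and 286 in Input (log2 difference −1.34, SE 0.22, limma adjusted p = 0.0135), Mpc2, of the pyruvate carrier, at −1.24, and Aldoa, aldolase, at −1.04. Fatty acid oxidation had 3 lower and 1 higher of 35 (8.57% and 2.86%, median −0.44). Ppargc1b, a coactivator of mitochondrial genes, was the higher one, at 184 and 285 scaled CPM in Cnot3 RIP, 79.5 and 75.3 in Input and 119 and 108 in control IgG RIP (log2 difference 1.56, SE 0.25, limma adjusted p = 0.0128). Etfb, an electron carrier of β-oxidation, and Acot13, a thioesterase, had −1.14 and −1.24. The autophagy list had 4 lower and 1 higher of 38 (10.5% and 2.63%). Gabarap and Map1lc3a, ubiquitin-like proteins of the autophagosome, had log2 differences of −1.29 and −1.38, with Gabarap at 61.1 and 51.0 scaled CPM in Cnot3 RIP against 134 and 141 in Input. Atg7, the enzyme that activates them, was higher at 34.023 and 39.8 scaled CPM in Cnot3 RIP against 17.8 and 20.9 in Input (log2 difference 0.92, SE 0.23, limma adjusted p = 0.0406). Atg7 had 24.3 and 23.8 scaled CPM in control IgG RIP and was not called against it (limma adjusted p = 0.214). In control IgG RIP minus Input, Gabarap and Map1lc3a had −1.31 and −1.16, both called. Splicing factors had 1 lower of 68 (1.47%, below the share of all genes), Snrpd3, a core snRNP protein, at 9.91 and 9.48 scaled CPM in Cnot3 RIP against 22.1 and 23.1 in Input (log2 difference −1.18, SE 0.24, limma adjusted p = 0.0233). For control IgG RIP minus Input the list medians, in the order given, were −0.44, −0.31, −0.35, −0.30, −0.18 and 0.0081. Lower calls there numbered 0, 4, 1, 1, 2 and 0, where 1.55% of all genes were lower. No member of the 6 lists was called between Cnot3 RIP and control IgG RIP. Lower calls in these 6 lists without Cnot3 RIP replicate 2 were 0, 1, 0, 0, 0 and 0, and without Input replicate 1 or 2 limma called none. The call of Atg7 was lost without Cnot3 RIP replicate 2, Input replicate 1 or Input replicate 2. On deposited CPM the medians of the proteasome and chaperone lists were 0.43 and 0.86, those of the glycolysis and fatty acid lists 0.65 and 0.70, and Psmc1, Psma2, Hspb8 and Aldoa had differences above 0.

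**Figure D3:**
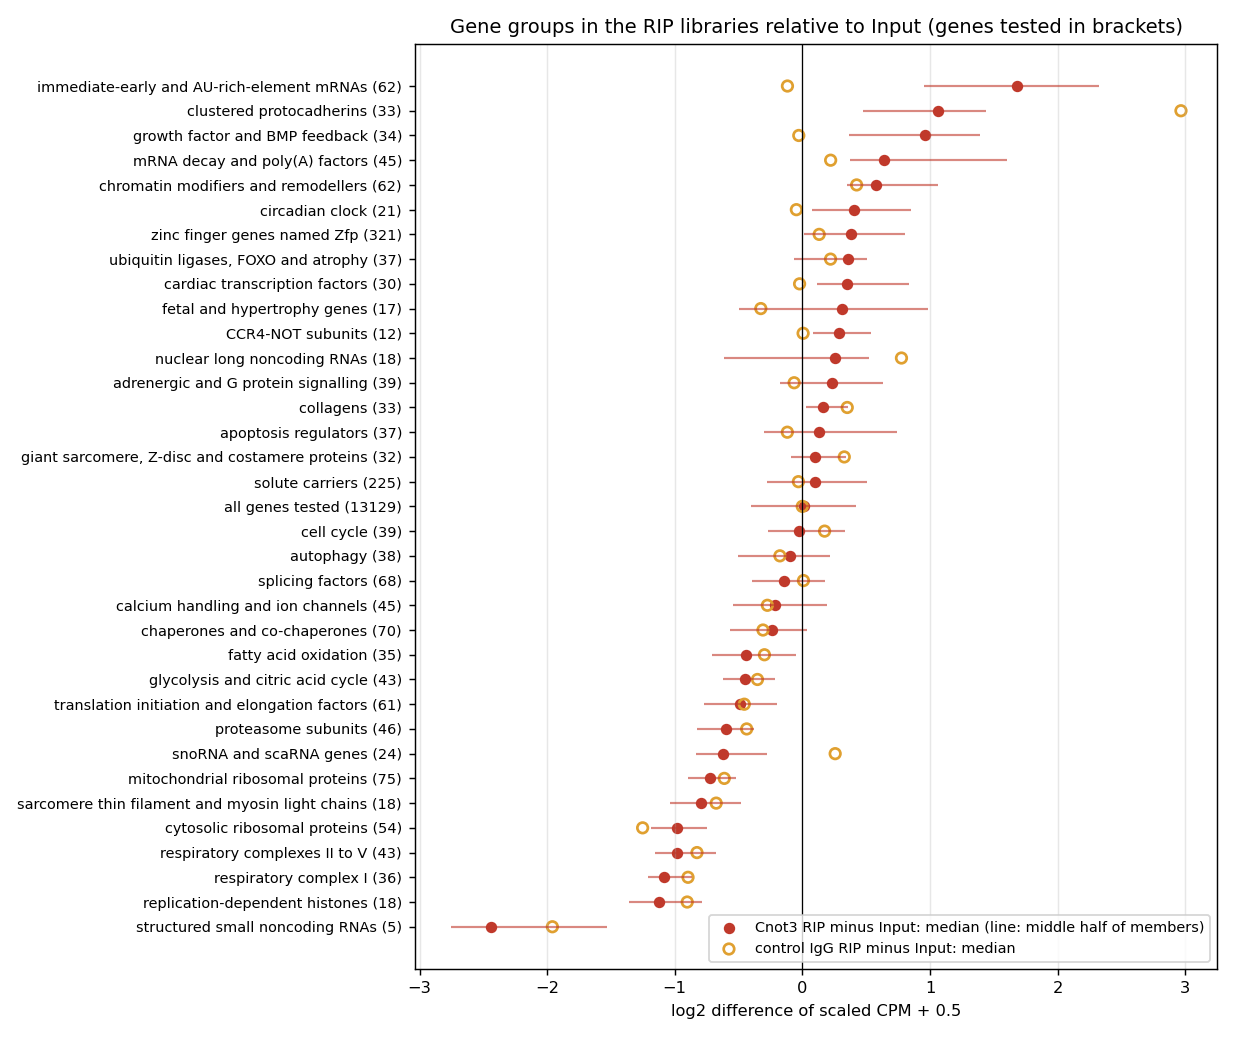
Median log2 difference from Input of each gene group in Cnot3 RIP (filled points, with a line over the middle 50% of members) and in control IgG RIP (open points), genes tested in brackets. Immediate-early mRNAs lie at 1.68 and −0.12, whereas respiratory complex I lies at −1.09 and −0.90; both series share the Input libraries, and on deposited CPM complex I lies at 0.045 in Cnot3 RIP.

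The 12 genes most read in Input did not pass the test in either direction. Ttn, titin, took 13.6% and 14.8% in Cnot3 RIP, 7.97% and 8.03% in Input and 23.4% and 15.8% in control IgG RIP of reads outside Rn45s (limma adjusted p = 0.540). Myh6, the α myosin heavy chain, had 44544 and 43344 scaled CPM in Cnot3 RIP, 24312 and 30550 in Input and 69179 and 32006 in control IgG RIP (limma adjusted p = 0.512). Both were above Input in all 4 RIP libraries, and control IgG RIP replicate 1 was the highest of the 6 for each. Atp2a2, the calcium pump of the sarcoplasmic reticulum, had 16635 and 15586 scaled CPM in Cnot3 RIP against 14383 and 17641 in Input, and Ryr2, its release channel, 6610 and 9544 scaled CPM in Cnot3 RIP against 5752 and 6321 in Input (limma adjusted p = 0.986 and 0.623). Other abundant transcripts had Cnot3 RIP values below Input without passing. Mb, myoglobin, had 4234 and 2412 scaled CPM in Cnot3 RIP against 5825 and 8232 in Input, and Tpm1, tropomyosin, 4223 and 2829 scaled CPM in Cnot3 RIP against 5879.7 and 6724 in Input. Actc1, cardiac actin, had 6700.2 and 7372 scaled CPM in Cnot3 RIP against 8669.7 and 9284 in Input, and Pln, phospholamban, 3681 and 5122 scaled CPM in Cnot3 RIP against 6154 and 6497 in Input. The limma adjusted p of these 4 ran from 0.104 for Mb to 0.576 for Actc1. Lpl, lipoprotein lipase, had 3991 and 3706 scaled CPM in Cnot3 RIP against 5056 and 6215 in Input (limma adjusted p = 0.325). Lars2, annotated as a mitochondrial leucyl-tRNA synthetase, had 22299 and 18567 scaled CPM in Cnot3 RIP against 75070 and 64993 in Input (limma adjusted p = 0.0756). Mir6236, annotated as a microRNA gene, had 12609 and 10444 scaled CPM in Cnot3 RIP against 38002 and 38698 in Input (limma adjusted p = 0.0515). On the same scale Rn45s had 1039810 and 1096042 in Cnot3 RIP against 3362986 and 3763448 in Input. Whether the reads of Lars2 and Mir6236 come from ribosomal RNA was not tested, which leaves the levels of both uncertain. In the thin filament and myosin light chain list 3 of 18 were lower (16.7%, median −0.80), Acta1, skeletal actin, at 90.9 and 87.1 scaled CPM in Cnot3 RIP against 178 and 201 in Input (log2 difference −1.09, SE 0.21, limma adjusted p = 0.0205), and the ventricular light chains Myl2 and Myl3 at −1.34 and −1.22. Of 32 giant sarcomere, Z-disc and costamere genes 2 were lower (6.25%, median 0.10), the small Z-disc proteins Myoz2, at 279 and 240.5 scaled CPM in Cnot3 RIP against 686 and 914 in Input (log2 difference −1.61, SE 0.25, limma adjusted p = 0.0112), and Csrp3, at −1.15. For control IgG RIP minus Input the median was −0.68 in the thin filament and light chain list and 0.33 in the giant sarcomere list. On deposited CPM, Acta1 had a difference of 0.049. Neither of these 2 lists had a call without Cnot3 RIP replicate 2, Input replicate 1 or Input replicate 2.

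Markers of cell types were read as lists. The sum of 20 fibroblast markers was 5677 and 3223 scaled CPM in Cnot3 RIP, 5254 and 4721 in Input and 3885 and 5362 in control IgG RIP. Cnot3 RIP replicate 2 and control IgG RIP replicate 1 were the lowest. The sum of 20 endothelial markers was 2640 and 1880 for Cnot3 RIP and 2020.1 and 1835 for Input, and that of 11 smooth muscle and pericyte markers 2137 and 1277 against 1819.5 and 1588. Limma called none of these 3 lists' members (for endothelial markers, the counts at an unadjusted p under 0.05 were 1 higher and 0 lower, edgeR's quasi-likelihood test called 0 and 0, and DESeq2 0 and 0; for fibroblast markers the counts were 1 and 3, 0 and 0, and 1 and 1; for smooth muscle and pericyte markers 1 and 1, then none by either tool). The 33 collagens also had no call (1 higher at an unadjusted p under 0.05, none by edgeR or DESeq2) and took 0.851% and 0.300% in Cnot3 RIP, 0.552% and 0.398% in Input and 0.348% and 0.765% in control IgG RIP of reads outside Rn45s. Of 17 leukocyte markers 2 were lower (11.8%), Lyz2 at 38.0 and 31.7 scaled CPM in Cnot3 RIP against 62.9 and 80.4 in Input (log2 difference −1.02, SE 0.25, limma adjusted p = 0.0373) and C1qb at 24.5 and 18.3 scaled CPM in Cnot3 RIP against 35.3 and 56.5 in Input (log2 difference −1.06, SE 0.28, limma adjusted p = 0.0497), and the markers' sum ran from 323 to 441 in Cnot3 RIP and from 427 to 529 in Input. Cardiomyocyte markers had 3 lower of 16 (18.8%, against 3.39% of all genes) and 12 with a negative difference (median −0.66), Nppa, Myl2 and Myl3, which other lists hold too. The cardiomyocyte markers' median for control IgG RIP minus Input was −0.65. On deposited CPM Lyz2 and C1qb had differences above 0. The leukocyte and cardiomyocyte calls were lost without Cnot3 RIP replicate 2, Input replicate 1 or Input replicate 2. Erythroid and platelet markers (5 tested) and nerve, fat, epicardium and skeletal muscle markers (6) had no call by limma, edgeR or DESeq2, with 1 and 2 lower at an unadjusted p under 0.05 and medians of 0.47 and −0.75. In bulk libraries fewer cells of a type and less RNA per cell cannot be told apart, and the part of the lower stromal reads of Cnot3 RIP replicate 2 in the results above was not tested.

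Libraries of different groups could be as alike as replicates. Across the 13129 genes, Pearson's r of log2 levels was 0.964 between the Cnot3 RIP libraries and 0.973 between the Input libraries, while Cnot3 RIP replicate 1 and control IgG RIP replicate 2 had 0.974, the highest of the 15 pairs. Because genes are no replicates, the 3 coefficients are descriptions only.

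Gains and losses followed the length of the transcript. Of the 13129 genes, 12511 had a coding transcript in GENCODE M21 and were split into quintiles by coding length. From the shortest to the longest quintile the median log2 difference was −0.49, −0.21, −0.020, 0.10 and 0.31, and control IgG RIP gave −0.54, −0.25, −0.041, 0.12 and 0.43 against the same Input libraries. Cnot3 RIP minus control IgG RIP gave 0.020, −0.010, 0.0080, −0.054 and −0.14. Control IgG RIP replicate 1 minus replicate 2 itself ran from −0.14 in the shortest quintile to 0.17 in the longest. The shortest quintile, with a median coding sequence of 576 bases, held 291 of the lower calls and 53 of the higher, and the longest quintile, at 3614 bases, 2 and 229. Both kinds of RIP thus ordered the quintiles the same way. Complex I had a median coding length of 442 bases and cytosolic ribosomal proteins one of 537.

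The length of the 3′ UTR ordered the genes too. It was read from 1 annotated transcript per gene, which need not be the one in these libraries. The length used was 0 bases for Tet3, 45 for Cpeb4 and 54 for Cflar, but 3167 for Rps20 and 2674 for Cycs. By quintiles of 3′ UTR length the medians were −0.24, −0.14, −0.014, 0.10 and 0.26 in Cnot3 RIP minus Input, −0.10, −0.076, −0.040, −0.0088 and 0.082 in control IgG RIP minus Input and −0.18, −0.12, −0.034, 0.054 and 0.15 in Cnot3 RIP minus control IgG RIP. The span from the shortest to the longest quintile was narrower in control IgG RIP than in Cnot3 RIP, a difference that was not tested. Replicates of a group also differed along these quintiles. Cnot3 RIP replicate 1 minus replicate 2 gave medians of 0.14, 0.0036, −0.070, −0.11 and −0.17. Input replicate 1 minus replicate 2 gave −0.065, −0.054, 0.0082, 0.015 and 0.062. Among genes in the shortest tertile by coding length, the medians for short, middle and long 3′ UTRs were −0.57, −0.39 and −0.070. Among those in the longest tertile they were 0.16, 0.22 and 0.39. Higher calls were 1.04% of the 1632 genes short in both and 14.3% of the 1484 genes long in both.

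When the trend on transcript length was removed from each library, limma called 296 of 13048 genes higher and 122 lower. The immediate-early list had 27 higher members and a median of 1.71, and the decay list 13 and 0.61. The growth factor feedback list had 7 and 0.74. Complex I had 1 lower gene and a median of −0.56, complexes II to V 4 and −0.39, and cytosolic ribosomal proteins 6 and −0.52. The structured small RNAs had 3 lower and a median of −1.73. No lower call was left by limma among proteasome subunits (median −0.28), snoRNA and scaRNA genes (0.10), thin filament and light chain genes (−0.58), fatty acid oxidation (−0.28), replication-dependent histones (−0.75), leukocyte markers (−0.23) or cardiomyocyte markers (−0.39). Lower calls came to 3 of 75 mitochondrial ribosomal proteins, 4 of 61 translation factors and 2 of 70 chaperones. They came to 1 of 43 genes of glycolysis and the citric acid cycle, 1 of 32 Z-disc and costamere genes and 4 of 38 autophagy genes. Higher calls came to 13 of 321 Zfp genes, 5 of 225 solute carriers, 3 of 33 protocadherins and 2 of 30 cardiac transcription factors. The share for solute carriers was near that of all genes in this fit. The 37 apoptosis regulators had 4 higher and 1 lower, the 39 adrenergic and G protein genes 2 and 2 and the 17 fetal genes 2 and 1. The 45 calcium handling genes had 1 and 0, also near the share of all genes for higher calls. The calls of Fbxo30, E2f3 and Atg7 were lost. The 10 named higher genes without Tnf and Lif all passed in this fit, and Cidea, Tesc and Uqcc2 among the lower genes did not.

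**Figure D4:**
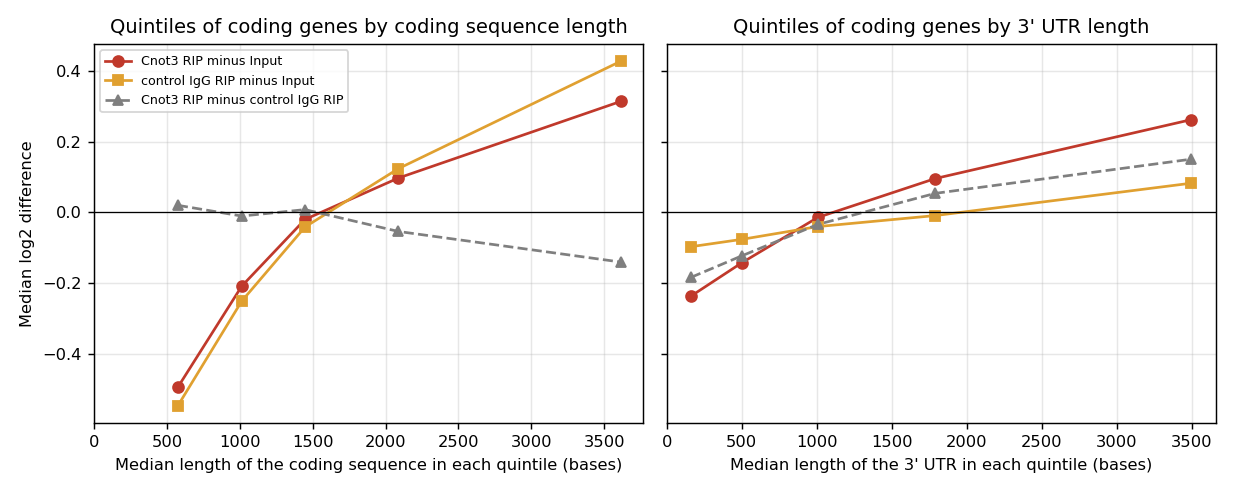
Median log2 difference in quintiles of 12511 coding genes by length of the coding sequence (left) and of the 3′ UTR (right), each point placed at the quintile's median length in bases. Lines show Cnot3 RIP minus Input, control IgG RIP minus Input and Cnot3 RIP minus control IgG RIP; the first 2 run close together for coding length, from −0.49 and −0.54 in the shortest quintile to 0.31 and 0.43 in the longest.

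The 3′ UTR motifs shown at the start were counted over all 12511 coding genes, on the sense strand only, with overlapping copies counted. The 9-base motif TTATTTATT stood in 7.31% of all coding genes, in 18.7% of the 701 higher genes with a coding transcript and in 2.53% of the 435 lower ones. Per kilobase of 3′ UTR this was 0.0653, 0.110 and 0.0550 sites. The shorter TATTTAT, which the longer motif contains, stood in 28.1%, 55.6% and 9.66%. Of the higher calls 296 lay in the longest quintile of 3′ UTR length and 39 in the shortest, and a longer UTR has more room for any short sequence. The Pumilio motif TGTANATA was found in 24.6% of all, 49.8% of higher and 9.43% of lower genes, at 0.241, 0.346 and 0.127 sites per kilobase. The let-7 seed match CTACCTC gave 9.55%, 19.1% and 3.68%. ACATTCC, the seed match of the muscle microRNA miR-1, gave 10.1%, 22.8% and 5.75%.

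The motif was also read within quintiles of similar 3′ UTR length. In the longest quintile, 425 genes with TTATTTATT had a median log2 difference of 0.46 and the others one of 0.23. For control IgG RIP minus Input the same genes gave 0.14 and 0.067. In the middle quintile the Cnot3 RIP medians were 0.19 with the motif and −0.025 without it. Cnot3 RIP minus control IgG RIP gave 0.0055 and −0.037 in the middle quintile, −0.19 and −0.18 in the shortest and 0.22 and 0.13 in the longest. Against Input, the longest quintile gave 0.39 and 0.13 for the Pumilio motif, 0.32 and 0.24 for the let-7 match and 0.39 and 0.21 for the miR-1 match. Genes that hold such motifs share other properties, base composition among them, and none of these differences was tested.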

How the data were processed

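RNA from 6 libraries of mouse heart was sequenced, grouped by their titles into pairs of Cnot3 RIP, Input and control IgG RIP libraries. The authors deposited CPM per gene symbol, with Rn45s in each library's total. Tools named in the submitters' processing notes are CASAVA 1.8, FastQC, Bowtie2 2.2.5, TopHat2 2.1.0, edgeR and mm10. For the counter, annotation, library kit and strand setting, the tool or setting is not given in the sources used here.

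CPM were recomputed without Rn45s, scaled with TMM factors over the 13129 genes with at least 0.5 deposited CPM in 2 libraries, and compared as log2(value + 0.5) in limma 3.58.1 (R 4.3.3) with a trended prior, 3 group means, all 6 libraries and no replicate block. P-values are two-sided and Benjamini-Hochberg adjusted over the 13129 genes, with 3 residual degrees of freedom. An exact permutation test of 2 against 2 cannot go below 0.333, so none is given for single values. All deposited values were whole multiples of 1 read to within 0.01 read, and edgeR's quasi-likelihood test (4.0.16) on the recovered reads called 729 genes higher and 447 lower. DESeq2 was version 1.42.0. Floors of 3 reads cover counting error only.

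Coding length, 3′ UTRs and coordinates came from GENCODE M21 on mm10, from the coding transcript with the longest coding sequence, by symbol, for 13048 of the 13129 genes. Members and lists were chosen with earlier results of these data known. Named genes were Cnot3, the 12 higher and 12 lower called genes with the largest difference, no overlap and a mean of at least 10 scaled CPM in the higher group (placeholder, microRNA and snoRNA symbols only counted, 22 and 13 of them), the 4 of smallest p in each list, and the 12 most read in Input. Alternatives changed the scaling, the added constant, the low-value filter, the tool, the libraries fitted, the block and a length correction. Some genes and 1 sequence window are not reported here.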

Additional observations from a re-analysis of the deposited data

How the results depend on the processing

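Higher and lower genes numbered 716 and 445 (61.7% higher among the called), and all 1161 kept their sign in every alternative that tested them except the deposited CPM. There, with Rn45s in the totals, the median of all genes moved from 0.0087 to 0.93, 7690 genes were called higher and 7 lower (99.9% higher), and negative log2 differences of named genes turned to Actc1 0.79, Map1lc3b 0.13, Acta1 0.049, Fabp4 0.041, Idh3a 0.18, Aldoa 0.10, Mrpl30 0.042, Psmc1 0.18, Psma2 0.11, Psmb10 0.020, Psmc3 0.22, Hspb8 0.14, Gnai2 0.13, Lyz2 0.10 and C1qb 0.061. Library size outside Rn45s as the only scaling gave 452 and 178 (71.7% higher), no filter on low values 452 and 177 (71.9%), the fit without control IgG RIP 507 and 216, and the length correction 296 and 122. Dropping 1 library gave 3 to 1298 higher and 0 to 628 lower genes by limma. The remaining alternatives stayed within 1.5 times. The cause of these changes was not tested. With the replicate number as a block the counts were 594 and 217 (73.2% higher). The labels do not say that the numbers pair the libraries, and deviations of same-numbered libraries had r = 0.336 between Cnot3 RIP and Input and −0.314 and −0.315 with control IgG RIP. Crossing the control IgG RIP numbers, an alternative chosen after seeing the data, gave 1528 and 1183.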
